A study of Rattus norvegicus with 12 samples.

Results

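The mitochondrial carrier genes, named Slc25a followed by a number, together with the uncoupling proteins Ucp1, Ucp2 and Ucp3, were followed in the renal cortex of rats given cisplatin or water. Members were the genes whose array probes matched a rat gene symbol of this form, and where a gene had several probes the brightest on average over the 12 arrays was used. This took 43 of the 15645 named genes on the array, with 86 of its 61537 probes outside the controls. Total RNA of male Sprague-Dawley rats, 5 weeks old when bought and dosed for 4 weeks, was hybridised to 1-colour Agilent arrays, 1 array per animal and 3 animals in each of 4 groups. The groups were cisplatin by gavage at 3.75 mg/kg/day, water by gavage, cisplatin by intravenous injection at 0.75 mg/kg/day and water by intravenous injection. Route, dose and experiment therefore changed together, and the treatment text common to all samples states 3.75 mg/kg/day for the injected rats too. Values are log2 signals relative to the 75th percentile of the same array, and changes are cisplatin minus water on this scale, from a limma fit to all arrays, with their standard errors. A change was called at an adjusted p under 0.05, adjusted over all 32215 features tested. To be tested, a gene had to stand well above background in every animal of some group. Of the 43 members, 41 were tested, and 35 of these were well above background on all 12 arrays. Slc25a41 and Ucp3 were well above background on 0 and 1 of the 12 arrays and are named only. Another 13 family genes of the RefSeq gene table, Slc25a12 and Slc25a13 (the aspartate/glutamate carriers) among them, were not analysed here.

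Mitochondrial carriers are a large family of transporters that sit, with few exceptions, in the inner mitochondrial membrane and exchange nucleotides, phosphate, carboxylates, amino acids, acylcarnitines, cofactors and metal ions between the cytosol and the matrix. The proximal tubule of the kidney is packed with mitochondria, burns fatty acids and lactate, and uses the carboxylate and glutamate carriers for gluconeogenesis and ammonia production. The ATP-Mg/phosphate carriers set the size of the matrix adenine nucleotide pool and are switched on by calcium in the cytosol, and the uncoupling proteins and their relatives carry anions or protons.

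The stretches before the transcription start are shown for 2 groups of closely related carriers whose members changed unequally, the ATP-Mg/phosphate carriers and the ADP/ATP carriers. Each is the 250 bases before the start in the RefSeq promoter table of the GRCr8 assembly, 5′ to 3′ on the strand of the gene, and capitals mark matches to the motifs searched.
Slc25a24, chr2:199449175-199449424, plus strand: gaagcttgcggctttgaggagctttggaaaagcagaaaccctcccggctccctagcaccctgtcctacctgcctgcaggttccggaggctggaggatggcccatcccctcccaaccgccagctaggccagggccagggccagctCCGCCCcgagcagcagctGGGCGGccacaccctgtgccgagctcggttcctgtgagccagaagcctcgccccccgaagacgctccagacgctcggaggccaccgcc
Slc25a23, chr9:1985366-1985615, minus strand: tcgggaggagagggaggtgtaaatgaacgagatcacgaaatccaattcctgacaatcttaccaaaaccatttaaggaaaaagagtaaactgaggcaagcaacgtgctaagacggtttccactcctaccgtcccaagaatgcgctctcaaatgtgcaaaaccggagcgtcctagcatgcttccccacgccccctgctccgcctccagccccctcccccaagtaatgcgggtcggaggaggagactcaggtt
Slc25a25, chr3:36116582-36116831, minus strand: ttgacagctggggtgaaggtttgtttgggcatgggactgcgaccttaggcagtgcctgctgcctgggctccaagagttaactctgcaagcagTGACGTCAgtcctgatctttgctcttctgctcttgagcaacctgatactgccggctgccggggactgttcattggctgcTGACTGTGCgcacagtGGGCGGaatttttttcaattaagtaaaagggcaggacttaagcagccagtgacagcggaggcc
Slc25a4, chr16:52805271-52805520, plus strand: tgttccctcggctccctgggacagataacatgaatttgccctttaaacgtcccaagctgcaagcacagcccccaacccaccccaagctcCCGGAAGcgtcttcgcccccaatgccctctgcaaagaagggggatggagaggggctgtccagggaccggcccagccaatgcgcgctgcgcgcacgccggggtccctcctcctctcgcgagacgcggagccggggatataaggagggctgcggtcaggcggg
Slc25a5, chrX:120897366-120897615, plus strand: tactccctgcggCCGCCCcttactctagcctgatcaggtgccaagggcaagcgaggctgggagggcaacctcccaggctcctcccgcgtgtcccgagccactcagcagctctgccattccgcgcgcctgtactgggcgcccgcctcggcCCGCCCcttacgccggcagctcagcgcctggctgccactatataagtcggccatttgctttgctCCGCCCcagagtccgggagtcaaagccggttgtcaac

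Searched were, on both strands, 10 motifs: the NRF1 motif GCATGCGC, the ETS motif CCGGAAG bound by GABPA, the ERR site AAGGTCA, the HNF4 motif CAAAGTCCA, the HNF1 motif GTTAATNAT, the AP-1 motif TGANTCA, the CRE TGACGTCA, the NF-kB motif GGACTTTCC, the antioxidant response element TGACNNNGC and the GC box GGGCGG. As spelled, the antioxidant response element can share up to 7 bases with the AP-1 motif or the ERR site and 4 with the NRF1 motif or the GC box, the AP-1 and HNF1 motifs can share 4, and the CRE shares no more than 3 with any of the others. A promoter of full length was found for 38 of the 43 members. Members were counted with 1 promoter per gene, while the set of all promoters was not reduced in this way or limited to genes on the array. The shares that follow are therefore over unlike sets. The GC box was in 21 of the 38 members (55.3%), against 30.5% of all 33469 promoters of this length, and the ETS motif in 6 (15.8%), against 7.27%. Slc25a24 held 2 GC boxes, Slc25a5 held 3, Slc25a4 an ETS motif, and Slc25a25 a CRE 158 to 151 bases before the start, an antioxidant response element and a GC box. The CRE was in 2 of the 38 members (5.26%), Slc25a25 and Slc25a33, against 1.59% of all promoters, and the antioxidant response element in 2 (5.26%), against 10.1%. The AP-1 motif was in 2 members (5.26%), against 6.34%, and the ERR site in 1 (2.63%), against 3.99%. The stretch of Slc25a23 held no match, and the NRF1, HNF4, HNF1 and NF-kB motifs, found in 2.2%, 0.338%, 0.666% and 0.266% of all promoters, were in 0 of the 38.

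The tissue label was checked against marker genes. The summed level of 8 proximal tubule markers, on the scale of the 75th percentile, was 122 to 232 on the gavage cisplatin arrays, against 1495 to 1629 on the gavage water arrays, and 196 to 552 on the intravenous cisplatin arrays, against 1378 to 1574 on the intravenous water arrays. In all, 8 of these 8 markers fell after gavage and 7 of 8 after intravenous dosing, and 5 of 5 markers of tubule segments between it and the collecting duct fell in both experiments. Of 5 collecting duct markers 3 fell in each experiment, with sums of 112 to 211 on the gavage cisplatin arrays, against 134 to 166 on the gavage water arrays, and 66.9 to 156 on the intravenous cisplatin arrays, against 117 to 128 on the intravenous water arrays, so that the groups overlapped. All 5 fibroblast markers and 5 of 6 macrophage markers rose in both experiments, and 3 and 4 of 4 erythrocyte markers fell after gavage and intravenous dosing. The macrophage marker Cd163, among the 5, was well above background on 0 gavage and 0 intravenous water arrays. It so entered the test through the cisplatin groups, in which it was high. These lists changed in the same 2 comparisons as the carriers, and their part in the carrier changes was not tested. In such bulk tissue, fewer cells of a type and less RNA per cell cannot be told apart. Cisplatin arrays were brighter: their 75th percentiles were 1439 to 1532 after gavage cisplatin, where gavage water gave 969.7 to 1020, and 1387 to 1407 after intravenous cisplatin, where intravenous water gave 1008 to 1055. The levels are relative to this percentile, and where they are scaled to 7 spike-in probes instead, the median change of all features is 0.68 after gavage and 0.49 after intravenous dosing. The 3 intravenous cisplatin arrays filled a slide of their own, so that slide and cisplatin cannot be told apart in that experiment, and a gavage effect with the slide as a block rests on gavage cisplatin replicate 1.

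Most carriers fell with cisplatin, and a few rose steeply. After gavage, 25 of the 41 tested members fell, 5 rose and 11 were not called, against 30.2% lower and 29.5% higher among all features tested (32.7% and 30.2% among the 12610 named genes tested). After intravenous dosing 24 fell, 7 rose and 10 were not called, against 32.6% lower and 26.1% higher among all features (31.7% and 29.8% of the named genes). The median change of the members was -0.76 after gavage and -0.53 after intravenous dosing, beside 0.0013 and -0.07 for all features. Of the members, 20 fell in both experiments and 5 rose in both, and 0 were called in opposite directions. The 3 gavage cisplatin arrays all lay below the 3 water arrays for 26 members and above them for 6 (34.1% and 33.2% of all features), and the intravenous arrays did so for 24 and 8 (36.8% and 29.4%). Among the 35 members well above background on all 12 arrays, 24 fell and 2 rose after gavage and 21 fell and 4 rose after intravenous dosing. Slc25a27, Slc25a53 and Slc25a47, 3 of the 5 members that rose in both, were well above background on every array of the gavage cisplatin group and on 0, 0 and 1 of the gavage water arrays, and so entered the test through the group in which they were high. Slc25a18 likewise entered through the intravenous water group alone, and its call is among the 24 intravenous falls. Slc25a21 entered through the water groups alone, in which it was high. Its calls are among the 25 gavage falls, the 24 intravenous falls and the 20 in both. With spike-in scaling, 13 members fell and 13 rose after gavage, against 9.41% and 62.7% of all features, and 12 fell and 13 rose after intravenous dosing, against 9.12% and 53.1%. The 8 members that fell in both experiments under both scalings were Slc25a5, Slc25a10, Slc25a11, Slc25a23, Slc25a25, Slc25a30, Slc25a42 and Slc25a51. All 5 that rose in both experiments also rose with spike-in scaling, but that scaling raises every change, so it could not have lowered theirs. Of the members named here and called lower relative to the percentile, Slc25a4, Slc25a32 and Slc25a46 after gavage and Slc25a1, Slc25a3, Slc25a17, Slc25a20, Slc25a39 and Slc25a46 after intravenous dosing lay above 0 with spike-in scaling, which adds 0.68 and 0.57 to every change. Of these, Slc25a46 after gavage (0.31) was then called higher. That scaling also ended the gavage calls of Slc25a3, Slc25a16, Slc25a21, Slc25a34, Slc25a35, Slc25a38, Slc25a44 and Slc25a54, and the intravenous calls of Slc25a2, Slc25a15, Slc25a33, Slc25a35, Slc25a38 and Slc25a45, with the sign kept.

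**Figure D1:**
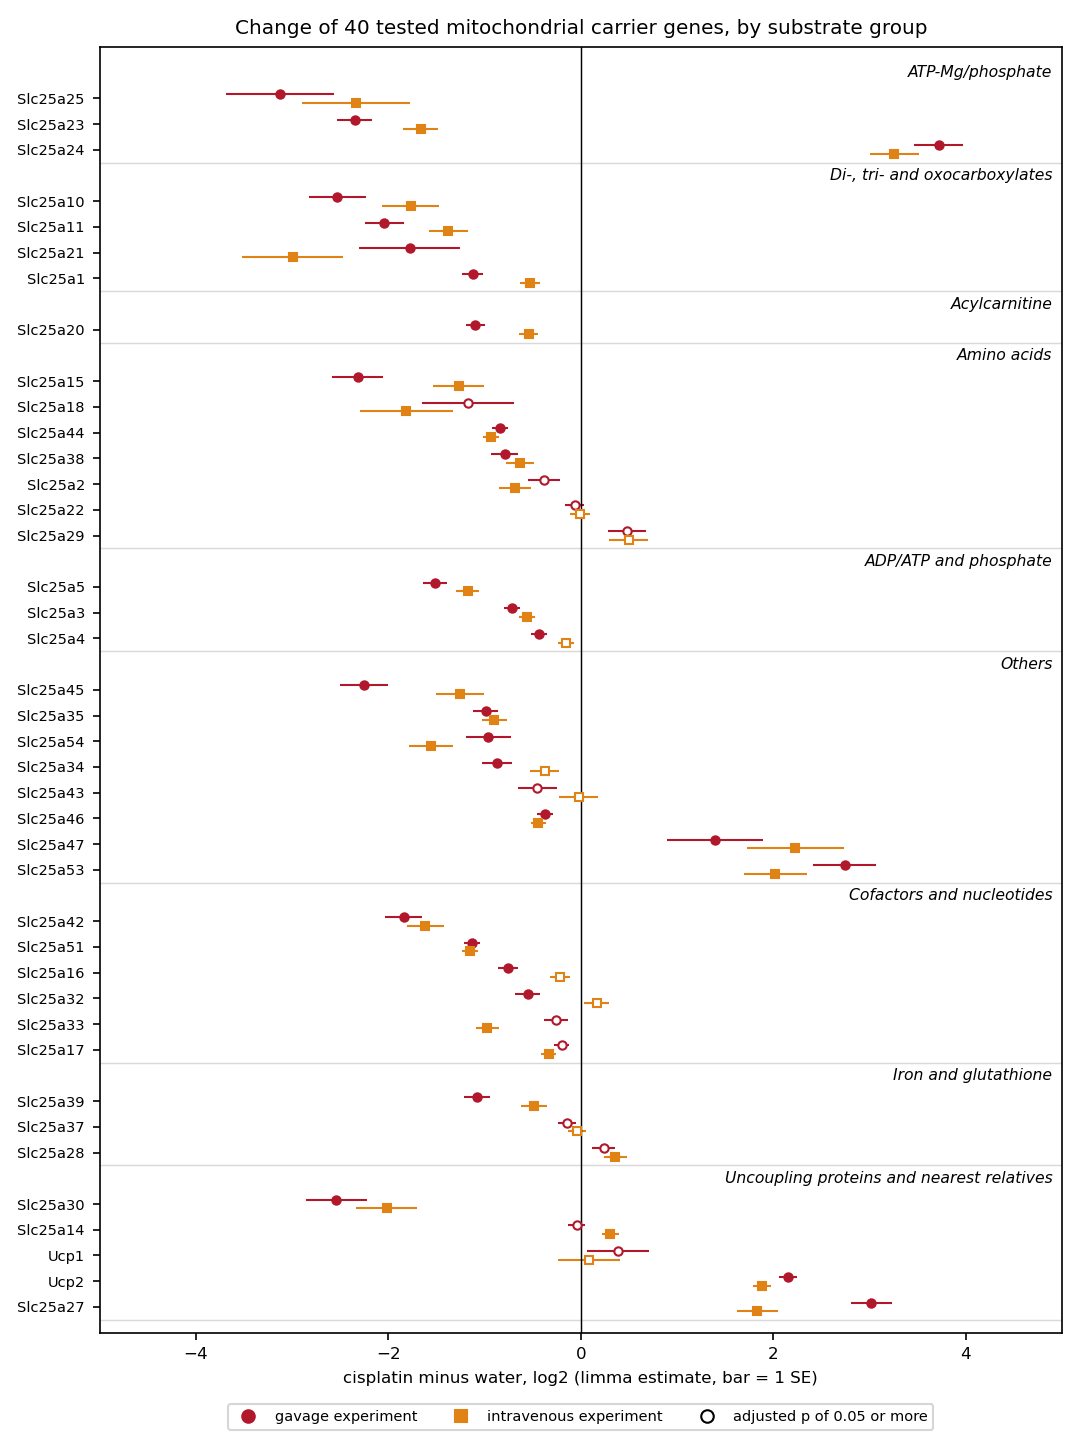
Cisplatin minus water (log2, x axis) for 40 of the 41 tested members, one row each, grouped by the substrate of the carrier. Circles stand for the gavage and squares for the intravenous experiment, bars are 1 SE of the limma fit, and open symbols have an adjusted p of 0.05 or more. Slc25a24 lies at 3.72 and 3.26 while Slc25a23 and Slc25a25 of the same group lie between -3.12 and -1.66.

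The ATP-Mg/phosphate carriers moved in opposite directions. Slc25a24, whose product is also called SCaMC-1, had log2 levels of 3.51, 3.23 and 3.67 on the gavage cisplatin arrays, against -0.047, -0.47 and -0.23 on the gavage water arrays. In the intravenous experiment its levels were 3.49, 2.71 and 2.34 on the intravenous cisplatin arrays, against -0.55, -0.30 and -0.38 on the intravenous water arrays. Every cisplatin array lay above every water array, and the change of 3.72 ± 0.25 after gavage (adjusted p = 2.21e-06) and 3.26 ± 0.25 after intravenous dosing (adjusted p = 8.04e-06) was 13.2-fold and 9.55-fold. No other member rose more in either experiment, and its second probe, well above background on 6 of 12 arrays, also had a higher mean with cisplatin in both. Slc25a23, the carrier also called SCaMC-3, had levels of -4.07, -3.96 and -4.07 on the gavage cisplatin arrays, against -1.61, -1.82 and -1.62 on the gavage water arrays. After intravenous dosing they were -3.95, -3.37 and -3.10 on the intravenous cisplatin arrays, against -1.87, -1.88 and -1.67 on the intravenous water arrays, and its change was -2.35 ± 0.18 after gavage (adjusted p = 4.46e-06) and -1.66 ± 0.18 after intravenous dosing (adjusted p = 5.26e-05). All 6 cisplatin arrays lay below all water arrays, with intravenous replicate 1 close to the gavage cisplatin arrays and replicates 2 and 3 between the groups. Slc25a25, also called SCaMC-2, fell more than any other member after gavage, with levels of 2.36, 2.91 and 2.72 on the gavage cisplatin arrays, against 5.95, 5.89 and 5.51 on the gavage water arrays. Its intravenous levels were 2.07, 4.66 and 4.54 on the intravenous cisplatin arrays, against 6.40, 5.83 and 6.04 on the intravenous water arrays, so that replicate 1 was far below its group mates. Its change was -3.12 ± 0.56 after gavage (adjusted p = 0.000833) and -2.33 ± 0.56 after intravenous dosing (adjusted p = 0.0052), and -1.49 after intravenous dosing without replicate 1. Taken relative to Slc25a23 on the same array, a measure that no scaling of an array can alter, Slc25a24 was higher by 6.07 with gavage cisplatin and by 4.92 with intravenous cisplatin than with water, and relative to Slc25a25 by 6.84 and 5.59 (log2), with no overlap of cisplatin and water arrays. These pairs were chosen after their values were seen.

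**Figure D2:**
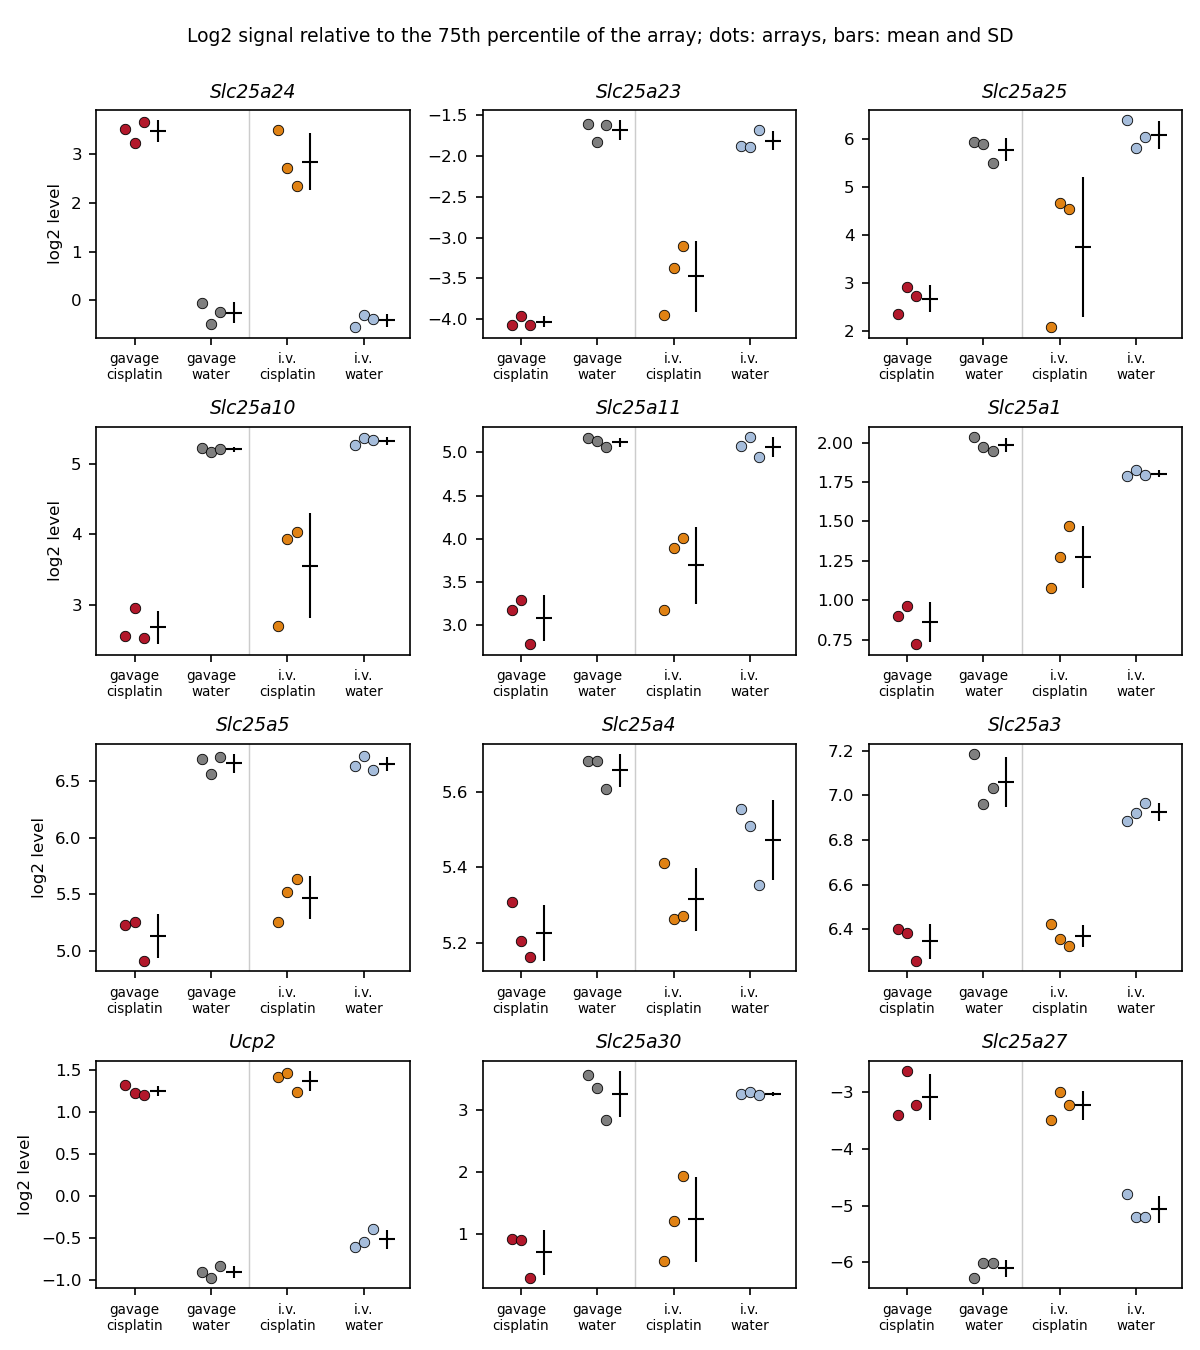
Log2 level relative to the 75th percentile of the array (y axis, a scale of its own in each panel) of 12 members on every array, by group. Dots are single arrays (1 animal each), and the bar beside them is the mean with its SD (n = 3). Ucp2 and Slc25a24 are higher and Slc25a10, Slc25a11 and Slc25a23 lower on every cisplatin array, and intravenous cisplatin replicate 1 is the lowest of its group for Slc25a25 at 2.07.

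The ADP/ATP and phosphate carriers, which supply oxidative phosphorylation with its substrates and export ATP, had smaller falls than Slc25a23 and Slc25a25. Of them, 3 of 3 were called lower after gavage and 2 of 3 after intravenous dosing. Slc25a5, the ADP/ATP carrier ANT2, had levels of 5.23, 5.26 and 4.91 on the gavage cisplatin arrays, against 6.70, 6.56 and 6.71 on the gavage water arrays. Intravenous dosing gave 5.26, 5.52 and 5.64 on the intravenous cisplatin arrays, against 6.63, 6.72 and 6.59 on the intravenous water arrays, and the cisplatin and water arrays did not overlap in either experiment. It changed by -1.52 ± 0.12 after gavage (adjusted p = 5.58e-06) and -1.17 ± 0.12 after intravenous dosing (adjusted p = 4.07e-05). Slc25a4, the ADP/ATP carrier ANT1, had 5.31, 5.21 and 5.16 on the gavage cisplatin arrays, against 5.68, 5.68 and 5.61 on the gavage water arrays. With intravenous dosing it had 5.41, 5.26 and 5.27 on the intravenous cisplatin arrays, against 5.56, 5.51 and 5.35 on the intravenous water arrays, where the groups overlapped. The gavage change of -0.43 ± 0.084 was called (adjusted p = 0.0014) and the intravenous change of -0.16 ± 0.084 was not (adjusted p = 0.133), and with spike-in scaling both were above 0, at 0.25 and 0.41. The gavage call ended with quantile normalization (-0.14, adjusted p = 0.11), and the intravenous change was called with normexp background correction (-0.22, adjusted p = 0.0471), array weights (-0.21, adjusted p = 0.0316) and the mean of all probes of the gene (-0.27, adjusted p = 0.0223), all by limma. On the same array, Slc25a5 relative to Slc25a4 was lower, the difference being -1.09 with gavage cisplatin and -1.02 with intravenous cisplatin, with no overlap between cisplatin and water arrays, a pair chosen after its values were seen. Slc25a3, the phosphate carrier, had 6.40, 6.38 and 6.26 on the gavage cisplatin arrays, against 7.18, 6.96 and 7.03 on the gavage water arrays. With intravenous dosing its levels were 6.42, 6.36 and 6.33 on the intravenous cisplatin arrays, against 6.89, 6.92 and 6.97 on the intravenous water arrays, all below the water arrays. It changed by -0.71 ± 0.082 after gavage (adjusted p = 4.88e-05) and -0.55 ± 0.082 after intravenous dosing (adjusted p = 0.000313), and by -0.04 and 0.011 with spike-in scaling. Of the outer membrane channels through which these substrates pass first, 3 of 3 fell after gavage and 2 of 3 after intravenous dosing, with changes of -1.13 and -0.81 for Vdac1.

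All 4 carriers of di-, tri- and oxocarboxylates fell in both experiments. Slc25a10, the dicarboxylate carrier that exchanges malate or succinate for phosphate, had levels of 2.56, 2.95 and 2.53 on the gavage cisplatin arrays, against 5.23, 5.17 and 5.22 on the gavage water arrays. Its intravenous levels were 2.70, 3.94 and 4.04 on the intravenous cisplatin arrays, against 5.26, 5.37 and 5.34 on the intravenous water arrays, with replicate 1 lowest of the 3. It fell 5.77-fold and 3.4-fold, a change of -2.53 ± 0.29 after gavage (adjusted p = 5.01e-05) and -1.77 ± 0.29 after intravenous dosing (adjusted p = 0.000611). Slc25a11, the oxoglutarate/malate carrier of the malate-aspartate shuttle, had 3.17, 3.29 and 2.77 on the gavage cisplatin arrays, against 5.17, 5.13 and 5.06 on the gavage water arrays. After intravenous dosing it had 3.17, 3.89 and 4.001 on the intravenous cisplatin arrays, against 5.07, 5.17 and 4.95 on the intravenous water arrays, and no cisplatin array reached a water array. Its change was -2.04 ± 0.20 after gavage (adjusted p = 2.01e-05) and -1.38 ± 0.20 after intravenous dosing (adjusted p = 0.000317). Slc25a1, the citrate carrier, changed by -1.12 ± 0.11 and -0.53 ± 0.11, and Slc25a21, the oxodicarboxylate carrier, by -1.78 ± 0.53 and -2.99 ± 0.53, while with spike-in scaling they changed by -0.45 and 0.037, and by -1.10 and -2.43. Slc25a21 was well above background on 2 of the gavage and 1 of the intravenous cisplatin arrays, and on all 6 water arrays, and its gavage call ended without gavage cisplatin replicate 3 or gavage water replicate 3. Of the shuttle enzymes in the cytosol and matrix, 4 of 4 fell after gavage and 2 of 4 after intravenous dosing, with changes of -1.79 and -1.55 for Mdh1 and -1.05 and -0.54 for Mdh2, the cytosolic and matrix malate dehydrogenases. Of 7 enzymes that make or use citrate, 6 fell after gavage and 5 after intravenous dosing, among them Idh2, the matrix isocitrate dehydrogenase that uses NADP (-2.27 and -1.69).

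Slc25a20, the carnitine/acylcarnitine carrier that brings long-chain acyl groups into the matrix, fell in both experiments. Its levels were 2.35, 2.25 and 2.22 on the gavage cisplatin arrays, against 3.35, 3.41 and 3.33 on the gavage water arrays. In the intravenous experiment they were 2.42, 2.59 and 2.78 on the intravenous cisplatin arrays, against 3.16, 3.21 and 3.05 on the intravenous water arrays, and neither experiment had overlapping groups. The change was -1.09 ± 0.10 after gavage (adjusted p = 1.13e-05) and -0.54 ± 0.10 after intravenous dosing (adjusted p = 0.00115), and -0.42 and 0.026 with spike-in scaling. Of its 7 partners in the carnitine shuttle, 6 fell in both experiments and 1 rose. Slc22a5, the carnitine transporter of the plasma membrane, changed by -3.01 and -2.06, and Cpt1a, the outer membrane enzyme that makes acylcarnitine, by -1.36 and -1.36. Cpt1c, a relative of Cpt1a known chiefly from brain, rose by 3.22 ± 0.11 and 3.12 ± 0.11.

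Of 7 tested amino acid carriers, 3 fell after gavage and 5 after intravenous dosing, and 0 rose. Slc25a15, the main ornithine carrier of the urea and arginine pathways, had levels of -0.50, -0.017 and -0.90 on the gavage cisplatin arrays, against 1.77, 1.77 and 2.00 on the gavage water arrays. By injection the levels were -0.13, 0.82 and 0.80 on the intravenous cisplatin arrays, against 1.69, 1.83 and 1.78 on the intravenous water arrays, with replicate 1 well below the other two. It changed by -2.32 ± 0.27 after gavage (adjusted p = 4.84e-05) and -1.27 ± 0.27 after intravenous dosing (adjusted p = 0.00246), and by -1.64 and, not called, -0.70 with spike-in scaling (adjusted p = 0.000748 and 0.0702). Slc25a22, a glutamate carrier, had 1.40, 1.56 and 1.58 on the gavage cisplatin arrays, against 1.69, 1.58 and 1.46 on the gavage water arrays. With intravenous dosing it had 1.39, 1.52 and 1.59 on the intravenous cisplatin arrays, against 1.43, 1.43 and 1.66 on the intravenous water arrays, so that the groups overlapped in both experiments. Its changes of -0.065 ± 0.10 and -0.0097 ± 0.10 were not called (adjusted p = 0.606 and 0.942), and were 0.61 and 0.56 with spike-in scaling. Slc25a18, the second glutamate carrier, was well above background on 0 of the 6 cisplatin arrays, on 1 gavage water array and on all 3 intravenous water arrays. Its intravenous fall was at least 1.44-fold, and its call was of the limma change (adjusted p = 0.00861) and not of this bound. That call ended with the mean of all its probes, and 1 of its 3 probes, itself dim, had a higher mean with cisplatin in both experiments. Slc25a44, a carrier of branched-chain amino acids, changed by -0.84 ± 0.082 and -0.94 ± 0.082, and Slc25a38, which brings in glycine for haem synthesis, by -0.79 ± 0.14 and -0.63 ± 0.14. Slc25a2, a second ornithine carrier, fell by the intravenous test alone (-0.68 ± 0.17), and Slc25a29, a carrier of basic amino acids, was not called at 0.48 ± 0.20 and 0.50 ± 0.20. Of 7 tested enzymes of ornithine and arginine, 4 fell and 3 rose after gavage and 5 fell and 2 rose after intravenous dosing. Gatm, which makes guanidinoacetate for creatine, changed by -3.85 and -2.26 and Oat, ornithine aminotransferase, by -2.11 and -1.75, while Arg1, arginase, changed by 1.55 and 1.32. Arg2, the mitochondrial arginase, rose by 0.49 ± 0.16 after gavage and changed by -0.46 ± 0.16 after intravenous dosing, where its fall was called, and the difference of -0.96 ± 0.22 was not (adjusted p = 0.0686). Its mean levels were close with gavage and intravenous cisplatin, at 1.40 and 1.45, and further apart with gavage and intravenous water, at 0.90 and 1.91. That water difference of 1.01 ± 0.16 was not called by limma (adjusted p = 0.103). Of 6 enzymes of ammonia and glutamate, 3 fell after gavage, and 3 fell and 1 rose after intravenous dosing. Glud1, glutamate dehydrogenase, changed by -1.44 and -1.12.

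Among 7 carriers of cofactors and nucleotides, 5 fell after gavage and 4 after intravenous dosing. Slc25a42, the coenzyme A carrier, had 0.44, 0.85 and 0.73 on the gavage cisplatin arrays, against 2.63, 2.54 and 2.37 on the gavage water arrays. In the intravenous experiment it had 0.61, 1.18 and 1.46 on the intravenous cisplatin arrays, against 2.70, 2.63 and 2.76 on the intravenous water arrays, and cisplatin and water arrays lay apart in both. The change was -1.84 ± 0.19 after gavage (adjusted p = 2.74e-05) and -1.61 ± 0.19 after intravenous dosing (adjusted p = 9.12e-05). Slc25a51, the carrier that brings NAD+ into the matrix, changed by nearly the same amount in both experiments, -1.13 ± 0.082 and -1.15 ± 0.082. The difference between its effects was -0.025 ± 0.12. Slc25a16, linked to coenzyme A, changed by -0.76 and -0.22, and Slc25a32, which carries folate or FAD, by -0.55 and 0.16, both called after gavage alone. With spike-in scaling the gavage change of Slc25a32 was 0.12. Slc25a33, a pyrimidine nucleotide carrier, changed by -0.26 and -0.97 and Slc25a17, a peroxisomal carrier of cofactors, by -0.20 and -0.33, both called after intravenous dosing alone. With all arrays, none of these single-experiment calls had a called difference between the experiments. Some of them depend on the probe. With the mean of all probes of a gene, Slc25a16 and Slc25a33 were called in both experiments and Slc25a17 after gavage alone. Another probe of Slc25a16, well above background on all 12 arrays, changed by -0.77 and -0.84, and its remaining probe by -0.71 and -0.47.

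The iron and glutathione carriers split. Slc25a39, needed for glutathione in the matrix, had 3.20, 3.09 and 2.74 on the gavage cisplatin arrays, against 4.12, 4.07 and 4.08 on the gavage water arrays. Its intravenous levels were 3.31, 3.57 and 3.73 on the intravenous cisplatin arrays, against 4.08, 4.05 and 3.91 on the intravenous water arrays, below the water arrays in both experiments. It changed by -1.08 ± 0.14 after gavage (adjusted p = 8.37e-05) and -0.48 ± 0.14 after intravenous dosing (adjusted p = 0.0117), and by -0.40 and 0.085 with spike-in scaling, and quantile normalization ended the intravenous call (-0.29, adjusted p = 0.0857). Slc25a37, mitoferrin 1, which feeds iron to haem synthesis in erythroid cells, had -1.83, -2.02 and -1.84 on the gavage cisplatin arrays, against -1.88, -1.65 and -1.75 on the gavage water arrays. Intravenous dosing gave -1.82, -1.82 and -1.96 on the intravenous cisplatin arrays, against -1.79, -1.80 and -1.90 on the intravenous water arrays, and the groups overlapped in both experiments. Its changes of -0.14 ± 0.091 and -0.038 ± 0.091 were not called, and were both 0.53 with spike-in scaling. Slc25a28, mitoferrin 2, the form found in most tissues, changed by 0.24 ± 0.12 and 0.36 ± 0.12, of which the intravenous rise was called, and leaving out any one of intravenous cisplatin replicates 1 and 3 and intravenous water replicates 1 and 3 ended that call. Of 13 tested genes of haem and iron-sulfur synthesis and export, 9 fell in each experiment and 0 rose. Alas2, the erythroid form of the first enzyme of haem synthesis, changed by -7.21 and -4.53, of which the gavage value rests on signals near background, since 1 of the 3 gavage cisplatin arrays was well above it, beside Hbb, a haemoglobin chain of the erythrocyte list, at -8.45 and -3.98. Alas1, the form of other tissues, changed by -1.15 and -0.57, and Nfs1, the cysteine desulfurase of iron-sulfur synthesis, by -2.21 and -1.38.

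The uncoupling proteins and their nearest relatives moved apart as well: of 5 tested, 1 fell and 2 rose after gavage, and 1 fell and 3 rose after intravenous dosing. Ucp2, the widely expressed uncoupling protein, which is abundant in macrophages and spleen, had levels of 1.31, 1.22 and 1.20 on the gavage cisplatin arrays, against -0.91, -0.98 and -0.83 on the gavage water arrays. In the intravenous experiment they were 1.41, 1.45 and 1.23 on the intravenous cisplatin arrays, against -0.61, -0.55 and -0.40 on the intravenous water arrays, with every cisplatin array above every water array. The rise of 2.15 ± 0.092 after gavage (adjusted p = 2.06e-07) and 1.89 ± 0.092 after intravenous dosing (adjusted p = 6.29e-07) was 4.44-fold and 3.7-fold. Beside it, the summed level of the 6 macrophage markers was 10.5 to 17.8 after gavage cisplatin and 3.75 to 4.14 after gavage water. After intravenous cisplatin that sum was 10.5 to 14.4, with 3.79 to 5.83 after intravenous water, and its part in the Ucp2 rise was not tested. Slc25a30, also called kidney mitochondrial carrier protein 1, had 0.93, 0.91 and 0.30 on the gavage cisplatin arrays, against 3.56, 3.35 and 2.84 on the gavage water arrays. Intravenous dosing gave 0.58, 1.21 and 1.93 on the intravenous cisplatin arrays, against 3.25, 3.29 and 3.23 on the intravenous water arrays, in no overlap with water. It changed by -2.54 ± 0.32 after gavage (adjusted p = 7.83e-05) and -2.02 ± 0.32 after intravenous dosing (adjusted p = 0.000429). Slc25a27, the brain uncoupling protein UCP4, had -3.40, -2.62 and -3.23 on the gavage cisplatin arrays, against -6.28, -6.02 and -6.02 on the gavage water arrays. The injected rats had -3.49, -2.99 and -3.22 on the intravenous cisplatin arrays, against -4.79, -5.20 and -5.21 on the intravenous water arrays, and it was not well above background on any gavage water array. The gavage rise was at least 6.16-fold, where the adjusted p of 2.59e-06 is of the limma change and not of this bound. The intravenous change was 1.83 ± 0.21 (adjusted p = 7.26e-05), and another probe, dim on all 12 arrays, did not follow these changes. These sizes depend on the background correction and on the probe, since the changes were 1.13 and 0.79 with normexp and 1.57 and 0.89 with the mean of all probes, called in each case, so that the bound holds for the reported scale only. Slc25a14, also called UCP5 or BMCP1, changed by -0.04 ± 0.088 and 0.31 ± 0.088, and the intravenous rise was absent from its dimmer probe, at -0.32. Its mean levels were 0.48 and 0.55 with gavage and intravenous cisplatin, and 0.52 and 0.25 with gavage and intravenous water. Ucp1, the uncoupling protein of brown fat, was not called at 0.38 ± 0.32 and 0.085 ± 0.32, beside 4 fat markers, of which Cidea (3.43 and 2.66) and Fabp4 (2.60 and 2.84) rose in both experiments, Adipoq (0.54 and 0.71) was called after intravenous dosing alone and Lep was not tested. Relative to Slc25a30 on the same array, Ucp2 was higher by 4.69 with gavage and by 3.90 with intravenous cisplatin, a pair chosen after its values were seen.

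Of 8 carriers with other or unsettled substrates, 5 fell and 2 rose after gavage, and 4 fell and 2 rose after intravenous dosing. Slc25a45 had levels of -2.65, -2.12 and -2.95 on the gavage cisplatin arrays, against -0.37, -0.47 and -0.14 on the gavage water arrays. Its intravenous levels were -2.25, -1.56 and -1.32 on the intravenous cisplatin arrays, against -0.49, -0.50 and -0.38 on the intravenous water arrays, again with replicate 1 lowest. Its change was -2.25 ± 0.25 after gavage (adjusted p = 3.56e-05) and -1.25 ± 0.25 after intravenous dosing (adjusted p = 0.00172), and with spike-in scaling -1.57 and, not called, -0.69 (adjusted p = 0.000776 and 0.0674). Slc25a53 rose, with -5.43, -4.72 and -4.40 on the gavage cisplatin arrays, against -7.15, -7.71 and -7.92 on the gavage water arrays. With intravenous dosing it had -5.90, -5.42 and -4.94 on the intravenous cisplatin arrays, against -7.81, -7.33 and -7.19 on the intravenous water arrays. It was well above background on 0 of 6 water arrays, and the rise was at least 1.81-fold after gavage and at least 1.097-fold after intravenous dosing. The calls were of the limma changes, which take in water signals near background, and not of these bounds (adjusted p = 5.71e-05 and 0.000501). Both calls were lost with the normexp background correction. Slc25a47, a carrier known from liver, had -3.78, -3.93 and -4.98 on the gavage cisplatin arrays, against -5.61, -5.78 and -5.49 on the gavage water arrays. The injected rats had -4.45, -2.79 and -2.94 on the intravenous cisplatin arrays, against -6.50, -5.27 and -5.10 on the intravenous water arrays, above water in both experiments. The changes of 1.40 ± 0.50 after gavage (adjusted p = 0.0341) and 2.23 ± 0.50 after intravenous dosing (adjusted p = 0.00357) rest on a dim probe, and the gavage call ended without any one of 5 of the 6 gavage arrays, with changes of 1.17 to 1.46. Slc25a35, Slc25a54 and Slc25a46 fell in both experiments, changing by -0.99 and -0.90, by -0.96 and -1.56, and by -0.37 and -0.44. Slc25a46, called higher after gavage with spike-in scaling (0.31), is an outer membrane protein that takes part in the shaping of mitochondria. Slc25a34 fell after gavage (-0.87 ± 0.15), and Slc25a43 was not called in either experiment.

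Genes outside the family that serve the same membranes were read beside it. Of 14 other mitochondrial transporters, 9 fell and 3 rose after gavage and 7 fell and 3 rose after intravenous dosing. The pyruvate carrier subunits Mpc1 (-1.79 and -1.42) and Mpc2 (-1.84 and -1.34) fell, and Sfxn3, a sideroflexin (1.35 and 0.67), and Slc8b1, the sodium/calcium exchanger (0.97 and 0.53), rose. Of 11 subunits of the protein import machinery, 10 fell after gavage and 5 after intravenous dosing, by less than the leading carriers, with Timm23, of the inner membrane channel, at -0.88 and -0.60. Of 12 genes of mitochondrial DNA and biogenesis, 10 fell and 1 rose after gavage and 8 fell and 1 rose after intravenous dosing. Ppara, a receptor that drives fatty acid oxidation genes, changed by -2.55 and -1.80, and Ppargc1a, a coactivator of mitochondrial biogenesis, by -1.10 and -0.72, while Nrf1, a regulator of respiratory genes, changed by 0.37 and 0.58 and was the gene that rose. Both comparisons have their own water controls and share none.

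The comparison of the experiments asked whether the carriers responded alike in the gavage and the intravenous experiment, which differed in route and dose and in part in slide. Of the 41 members, 0 had a called difference between the cisplatin effects by limma, beside 1.19% of all features, and the lowest adjusted p was 0.0786, for Slc25a33. An unadjusted p under 0.05 was found for 14 members. The share of all features at that threshold is not given here, so the 14 cannot be read against it. The median size of the difference was 0.48 for the members and 0.26 for all features. Of the 25 members called the same way in both experiments, 19 (76%) had the larger change after gavage, beside 65.4% of the 14776 such features in all. The median distance of the members from their group mates in the intravenous cisplatin group was 0.32 on replicate 1, 0.13 on replicate 2 and 0.28 on replicate 3 (log2), and 0.076 to 0.18 on the other 9 arrays. Over all features tested the distances were 0.23, 0.16 and 0.17 on these 3 arrays, and 0.17 to 0.19 on the gavage cisplatin arrays, so that replicate 1 had the largest by both measures, while replicate 3 exceeded the gavage cisplatin arrays over the members and not over all features. Replicate 1 was the lowest of the 3 for 18 of the 25 members that fell after gavage (54.8% of all features that fell after gavage), and gavage cisplatin replicate 3 was likewise the lowest of its group for 17 of them (48.4%). On intravenous cisplatin replicate 1 the proximal tubule markers summed to 196, against 486 and 552 on replicates 2 and 3. Without intravenous cisplatin replicate 1, 24 members fell and 6 rose after intravenous dosing (54.1% of all features called in either direction), and 10 members differed between experiments, beside 6.68% of all features. They were Slc25a1, Slc25a10, Slc25a11, Slc25a15, Slc25a20, Slc25a23, Slc25a25, Slc25a32, Slc25a39 and Slc25a45. The difference, intravenous minus gavage, was then 1.63 for Slc25a25, 1.36 for Slc25a15, 1.27 for Slc25a45 and 1.19 for Slc25a10, against 0.79, 1.05, 1.00 and 0.76 with all arrays. Without gavage cisplatin replicate 1, 6 members differed, beside 7.48% of all features, and with array weights 10, beside 7.04%.

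**Figure D3:**
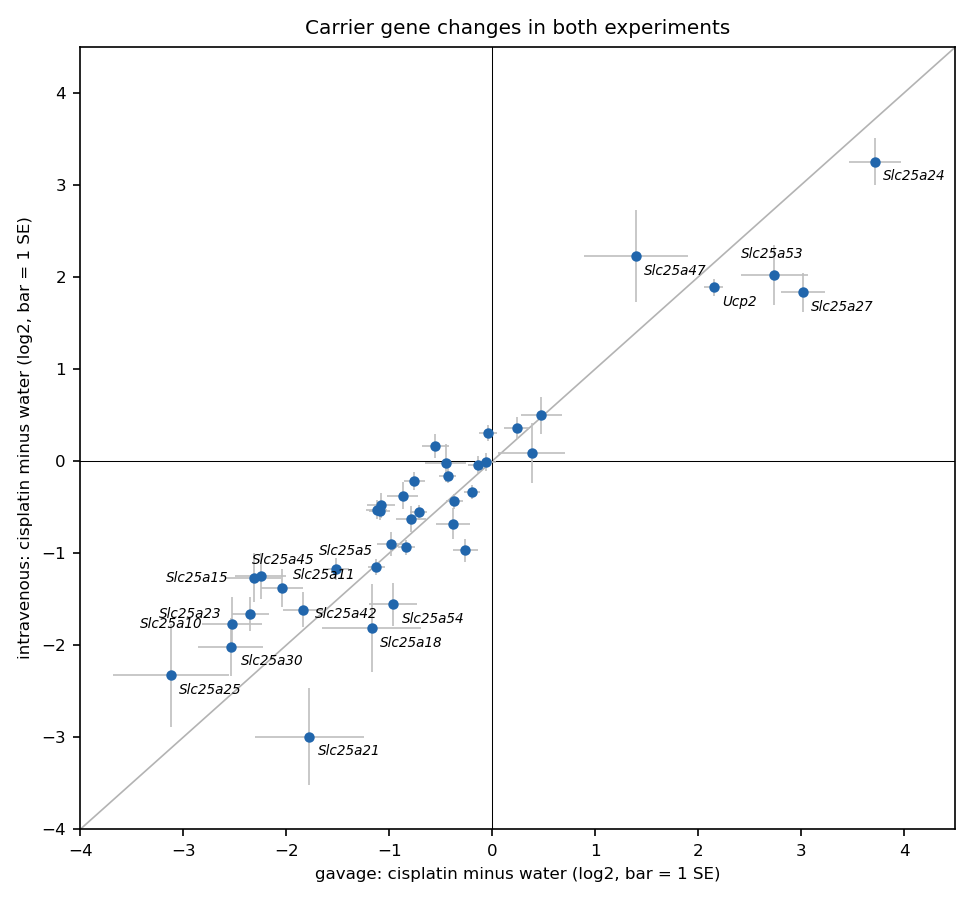
Cisplatin minus water (log2) in the gavage experiment (x axis) and in the intravenous experiment (y axis) for 40 of the 41 tested members, with bars of 1 SE and the line of equal change. The 5 members that rose in both lie at the upper right, and members that fell lie on both sides of the line, with Slc25a21 (-1.78 and -2.99) below it.

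**Figure D4:**
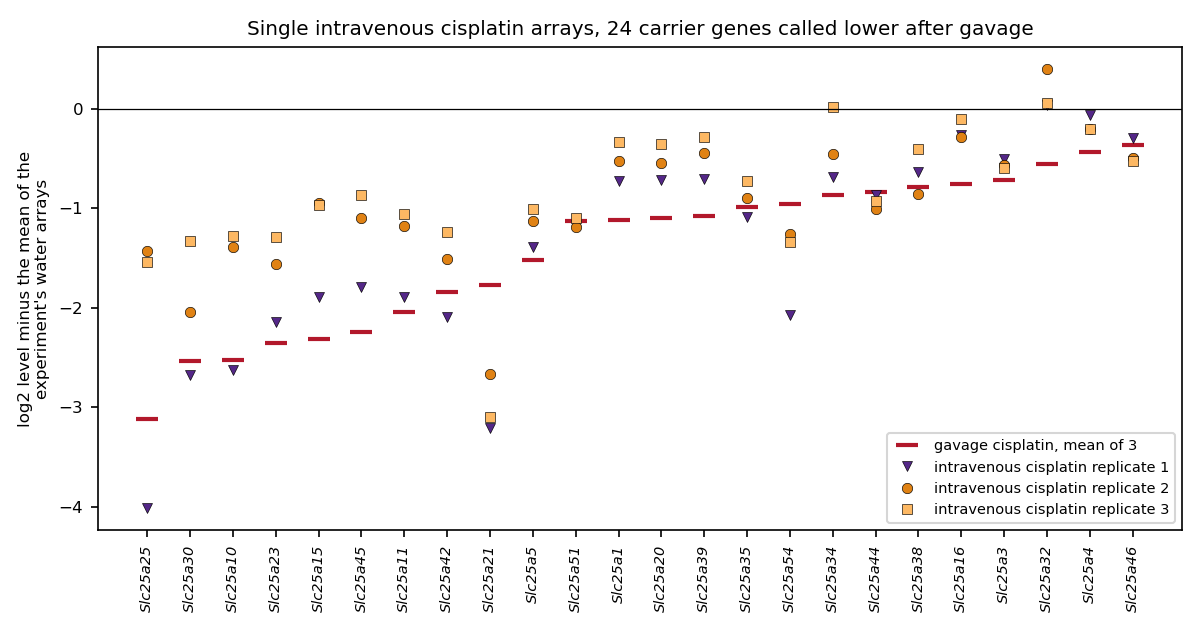
Log2 level of each intravenous cisplatin array minus the mean of the 3 intravenous water arrays (y axis) for 24 of the 25 members that fell after gavage, beside the gavage change (dash). Replicate 1 (triangles) is the lowest of the 3 arrays for 17 of these 24.

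The water groups were compared to see whether levels differed between the experiments without cisplatin. The gavage water and the intravenous water arrays lay on different slides, so that animals, route and slide cannot be told apart in this comparison. Of the 41 members, 0 were called between intravenous and gavage water by limma (0% of all features), and the lowest adjusted p was 0.122. That p was of Slc25a27, which was not well above background on any gavage water array, so that no size is given for it. An unadjusted p under 0.05 was found for 8 members, for which the share of all features is not given here. The median size of the water difference was 0.15 for the members and 0.15 for all features. Among the 35 members well above background on all 12 arrays, the largest differences, intravenous minus gavage, were 0.50 ± 0.23 for Slc25a54 (adjusted p = 0.377) and -0.49 ± 0.13 for Slc25a32 (adjusted p = 0.155), and that of Ucp2 was 0.39 ± 0.092 (adjusted p = 0.131).

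Several probes bore on the same gene for 30 members. For 22 members with 55 probes well above background on all 12 arrays, all probes lay on the same side of 0 in 21 of 22 members in each experiment, and the median spread between probes of a gene was 0.18 after gavage and 0.21 after intravenous dosing. The exceptions were Slc25a37 after gavage, with -0.14 and 0.07, and Slc25a14 after intravenous dosing, with 0.31 and -0.32. Slc25a5 has close copies in the genome, and whether their transcripts reach its probes was not tested.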

How the data were processed

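Spot values came from Agilent Feature Extraction, version 10.7 per the submitters' processing notes and 10.7.1.1 in the files. The deposited intensity is background-subtracted within each array, per the file headers. A value table deposited by the authors holds, judged by its values, a linear ratio of this intensity to the 75th percentile of the array, with column medians of 0.109 to 0.121; the reason for the scaling is nowhere stated in what was used here. From the intensities, log2 values minus that percentile were computed, leaving out 1439 control spots and 82 uneven spots, 0 of them on a probe that stands for a member. RefSeq accessions of a GRCr8 gene table named 28206 probes and left 33331 unnamed, with 0 given several symbols; the array design refers to rn4, and no probe positions are given. Of 45433 features 32215 were tested. Probes well above background made up 66.1% to 73.9% of an array, 0 were saturated, and precision is limited by how few arrays there were.

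A limma 3.58.1 model (R 4.3.3) took a mean for each of 4 groups from all 12 arrays, with 8 residual degrees of freedom and a prior of 2.09, two-sided tests and Benjamini-Hochberg adjustment over the features tested. The labels call animals of a group biological replicates. A group not well above background on any array has only a bound on its level, so the fold given is the smallest that its arrays' detection limits or own signals allow. The adjusted p given with such a fold is of the limma change and not of the bound. On simulated arrays for the gavage comparison (32215 features, 200 changed), 61% of changes of 1 and 89% of changes of 2 (log2) were recovered, and 7.98% of calls were false. Far more features were called in the real gavage comparison, 30.2% lower and 29.5% higher. The adjustment depends on that share, so the simulated shares do not measure the power or error of the reported calls. Values on every array are given for the 8 largest falls and up to 6 largest rises after gavage, for members with a called difference between experiments, and for a set list of carriers. The members, gene lists and rules were chosen with earlier results of these data known. Replicate numbers did not pair the arrays, since deviations of arrays with the same number correlated at -0.11 to 0.063. The counts include 1 member and some other genes whose own values are not reported here.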

Additional observations from a re-analysis of the deposited data

How the results depend on the processing

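Over 25 settings, the counts of members called kept within 1.5 times the reported count except where given here. With spike-in scaling 13 members were lower and 13 higher after gavage, and 12 lower and 13 higher after intravenous dosing, and 13.1% and 14.7% of the called features were lower, against 50.6% and 55.5% in the reported fit. Among the carriers with values given on every array, Slc25a4 (0.25), Slc25a22 (0.61) and Slc25a37 (0.53) changed sign under it after gavage. After intravenous dosing Slc25a3 (0.011), Slc25a4 (0.41), Slc25a20 (0.026), Slc25a22 (0.56), Slc25a37 (0.53) and Slc25a39 (0.085) did so. The differences of Slc25a22 (-0.056) and Slc25a37 (-0.0055) changed sign too. The other changes of sign among these carriers were of values not called: Slc25a4 (0.062) and Slc25a22 (0.059) after intravenous dosing with quantile normalization, Slc25a22 (0.093) and Slc25a37 (0.044) with normexp background correction, and Slc25a22 with array weights (0.048). Further members changed sign with spike-in scaling, among them the called falls of Slc25a32 (0.12) and Slc25a46 (0.31) after gavage. After intravenous dosing they included those of Slc25a1 (0.037), Slc25a17 (0.23) and Slc25a46 (0.13). Without single arrays, the intravenous change was -0.053 to 0.068 for Slc25a22 and -0.072 to 0.00767 for Slc25a37, and the difference of Slc25a22 was -0.00301 to 0.13. Array weights gave 10 members with a difference between experiments (7.04% of all features) and 5 between the water groups. Leaving out single arrays gave 0 to 10 members with a difference (6 without gavage cisplatin replicate 1 and 10 without intravenous cisplatin replicate 1) and 0 to 2 between the water groups. For the counts between the water groups under these settings, the share of all features is not given here. They cannot be read as particular to the carriers. With the replicate block 26 members were lower and 6 higher after gavage, 24 lower and 8 higher after intravenous dosing, 0 differed between experiments and 0 between the water groups; this block ended 1 gavage call and 0 intravenous calls. Outside spike-in scaling, 23 of 30 gavage calls and 25 of 31 intravenous calls held under every setting run. Normexp, which used the median signal in place of the mean, put the median change of all features at -0.13 in both experiments and the share of lower calls at 61.1% and 62.6%, and ended the calls of Slc25a53 (0.31 and 0.099) the gavage call of Slc25a47 (0.30) and the intravenous call of Slc25a28, and lessened the changes of Slc25a27 (1.13 and 0.79), of Slc25a47 after intravenous dosing (0.81) and of Slc25a23 after gavage (-1.71). The gavage call of Slc25a47 also ended with quantile normalization and with the slide as a fixed block, which ended those of Slc25a32 and Slc25a46 too. Quantile normalization ended the gavage call of Slc25a4 (-0.14) and the intravenous calls of Slc25a17 and Slc25a39, and the mean of all probes those of Slc25a14, Slc25a17 and Slc25a18. With the slide as a fixed block 24 members were lower and 5 higher after gavage, and it gives no intravenous value. The causes of these shifts were not tested. Dim probes (Slc25a18, Slc25a21, Slc25a27, Slc25a47 and Slc25a53) limit those members to bounds or to values near background.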
